A study of Mus musculus with 16 samples.

Results

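The genes described here encode the machinery that copies DNA in S phase, and 42 of them were followed in RNA of primary hippocampal neurons. They were listed by name as replication and S phase genes, with earlier results of these data known. All 42 were among the 48397 gene symbols of the count files, and all 42 had enough reads to be among the 17038 genes tested. The neurons came from wild-type CD1 mouse pups of postnatal days 0 to 2 and received AraC at 3 DIV (days in vitro). Conditioned medium of immortalized astrocytes, concentrated 10-fold, was added at 10 and 13 DIV, and the cultures ended at 17 DIV. The astrocytes of the 3 treated groups carried human *APOE* ε2, ε3 or ε4 in place of the mouse gene, and their medium held apoE2, apoE3 or apoE4 lipoproteins. The control neurons received medium of *Apoe*-/- astrocytes, so every group received astrocytic medium and AraC. Each group had 4 libraries with replicate numbers 1 to 4, which makes 16 in all, and the study's methods describe independent neuronal cultures. The groups differed by the astrocytes that made the medium as well as by the apoE isoform, and these cannot be told apart.

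A neuron leaves the cell cycle before it matures and does not normally copy its genome again, whereas glia, progenitors and fibroblasts in the same dish can. Before S phase the origin recognition complex, CDC6 and CDT1 load the MCM2-7 helicase onto origins, and CDC45 and the GINS complex then switch the helicase on. Polymerases, the sliding clamp PCNA and its loader RFC copy both strands, ribonucleotide reductase and thymidylate synthase supply the deoxynucleotides, and cyclin E with CDK2 drives the entry into S phase. Transcription of most of these genes is controlled by E2F factors, which RB proteins hold back in resting cells. AraC is a cytidine analogue that is built into new DNA and stops replicating cells, and it is given to neuronal cultures to remove dividing glia.

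The E2F motif is shown first, because E2F factors are the textbook regulators of S phase genes. RefSeq promoter windows on GRCm38.p6, 250 bases before to 50 after a start site, were found for 32 of the 42 genes. The motif was read in its spellings TTTCCCGC, TTTCGCGC, TTTGCCGC and TTTGGCGC on both strands, and neighbouring matches may overlap. It was present in 13 of these 32 genes (40.6%), against 704 of all 27025 genes with a window (2.6%), and in 13 of the 36 windows of the family (36.1%) against 744 of all 32851 windows (2.26%). A window of 30 bases is printed 5′ to 3′ on the gene's strand for each of 3 genes, with the motif in capitals. Promoters were read for the 4 named genes with the smallest unadjusted p with apoE3, which were *Cdt1*, *Clspn*, *Rrm2* and *Cdc45*, and *Cdc6* was added after its values had been seen. The motif began at −138, 32 and 21 bases from the RefSeq start site in *Cdc6*, *Cdt1* and *Clspn*, where negative values lie before it. In *Cdt1* and *Clspn* it is therefore downstream of that site. The *Cdc6* gene as annotated below starts at 98907801, so its motif lies inside that span. The *Cdc6* window is chr11:98908002-98908031 (+ strand), the *Cdt1* window chr8:122568035-122568064 (+ strand) and the *Clspn* window chr4:126556990-126557019 (+ strand).
Cdc6: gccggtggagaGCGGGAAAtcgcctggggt
Cdt1: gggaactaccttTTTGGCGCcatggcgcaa
Clspn: accgcgtctggGCGCGAAAgctcgaacttc
*Rrm2* and *Cdc45* held none of these spellings in their windows, which says only that these letters were not found there. *Orc1*, *Mcm3*, *Mcm5*, *Mcm6*, *Mcm7*, *Pola1*, *Pold1*, *Pold3*, *Rfc3* and *Lig1* also held the motif and are not printed. The match is a description of sequence and was not tied to any value below.

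Gene counts summed to between 14087723 and 34248172 reads in a library (median 22221832), and 38.4 to 73.7% of the reads had no gene. Values are CPM, read counts scaled to the library size after TMM, and differences are log2 fold changes of edgeR's quasi-likelihood fit over all 16 libraries. The adjusted p is that of edgeR after Benjamini-Hochberg adjustment over all 17038 genes unless another tool is named, and a gene is called at an adjusted p under 0.05. The label of neurons was borne out by their markers, with all 10 of 10 detected in every library and summed levels of 3419 to 7920 CPM. Other cells were also present in every group. The 9 astrocyte markers, none of them at 0 in any library, summed to 1418 to 3189 CPM in the control neurons, 1316 to 3173 with apoE2, 1707 to 6631 with apoE3 and 1577 to 5404 with apoE4. The 8 neural progenitor markers, of which 7 were tested and none was at 0, summed to 201 to 1335, 280 to 1415, 348 to 3698 and 277 to 2902 CPM in the same order. The 8 fibroblast and mural markers, none at 0, summed to 22.4 to 275, 20.9 to 237, 21.6 to 536 and 24.1 to 471 CPM. In bulk RNA fewer cells of a type and less RNA per cell cannot be told apart. Libraries that share a replicate number deviated together, least clearly in number 1, and this pattern is described after the group comparisons. Libraries of the same number, one treated and the other control, are called a pair.

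Of the 42 replication genes a single one, *Cdc6*, was called between apoE treated and control neurons. With apoE2 0 of the 42 genes had an adjusted p under 0.05, where 0% of all genes did. With apoE3 the count was 0 against 0.00587% of all genes, and with apoE4 it was 1, *Cdc6*, against 0.194% of all genes. An unadjusted p under 0.05 was reached by 0, 0 and 2 of the 42, where 2.79%, 6.43% and 3.3% of all genes passed. DESeq2 called 0, 0 and 1 of them at its own adjusted p, against 0.17%, 0.352% and 0.534% of all genes. A rise of at least 2-fold with an unadjusted p under 0.05, the study's criterion with the p of edgeR in place of that of the study's own test, which was another, was met by 0, 0 and 2 genes, where the shares over all genes were 0.423%, 1.25% and 1.04%. The groups did not overlap in 0, 0 and 1 of the 42 genes, against 2.19%, 2.59% and 1.91% of all genes. With the replicate number as a block the calls were 0 with apoE2 (1.73% of all genes), 1 with apoE3 (11.7%) and 1 with apoE4 (3.3%). The apoE3 gene was *Rrm1* and the apoE4 gene was *Cdc6*. The 3 comparisons share the control libraries and are not independent of each other.

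The median log2 fold change of the 42 genes was 0.13, 0.10 and 0.07 for apoE2, apoE3 and apoE4, where the medians over all genes tested were 0.01, 0.02 and 0.0020. Positive values were counted for 29, 28 and 30 of the 42 genes, and for 8912, 8933 and 8583 of all 17038. Over the pairs 1 to 4 the median of the family was 0.30, 0.08, 0.08 and 0.04 with apoE2, 0.15, −0.02, −0.06 and 0.11 with apoE3, and 0.13, 0.11, 0.02 and 0.25 with apoE4, on the log2 scale. The pair medians were positive in 4 of 4 pairs with apoE2 and with apoE4 and in 2 of 4 with apoE3. In the fit without the block, which leaves the numbers unbalanced when a library is dropped, the apoE3 median was −0.08 without apoE3 replicate 4 and the apoE4 median was −0.03 without apoE4 replicate 4, and without control replicate 4 the medians were 0.29, 0.22 and 0.34. The 95% interval of the fold change stayed within a 2-fold change in either direction for 25, 22 and 26 genes in these comparisons, and for 33, 32 and 30 with the replicate block. For the remaining genes a 2-fold change was within the interval or, for *Cdc6*, was exceeded.

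**Figure D1:**
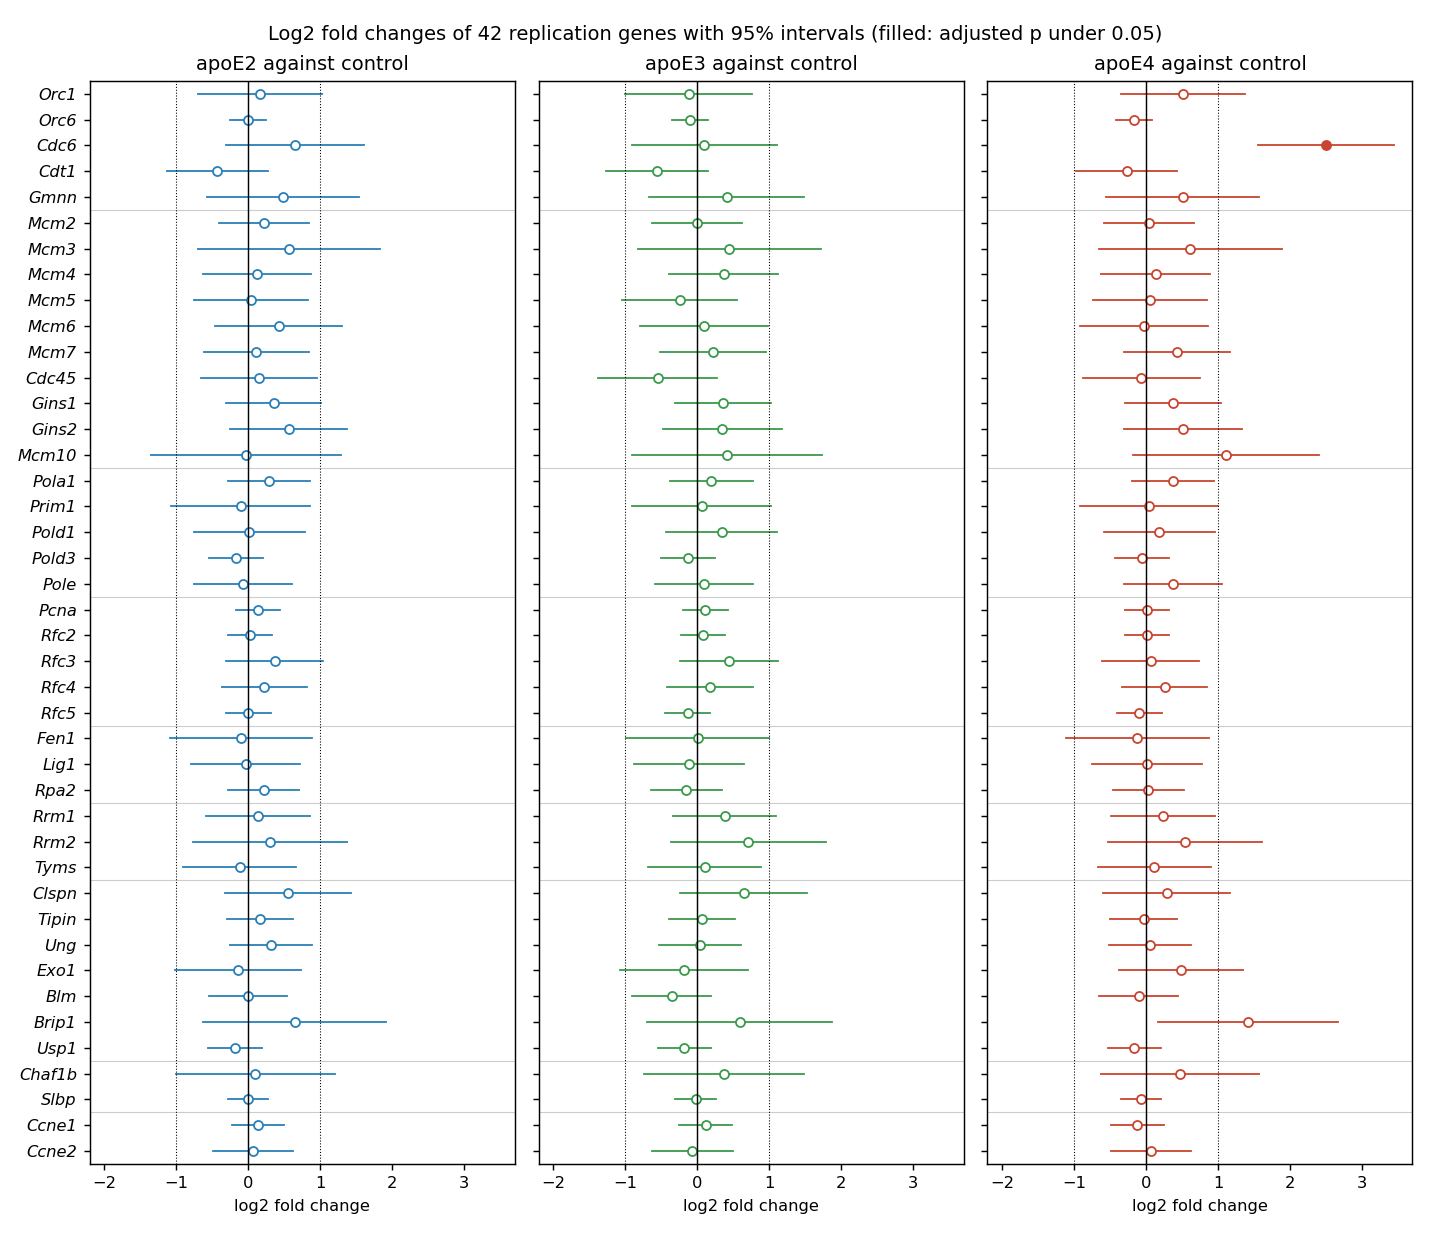
Log2 fold change (x axis) of each of the 42 replication genes (y axis, in blocks by role) in apoE2, apoE3 and apoE4 treated neurons against the control neurons, with 95% intervals of the edgeR fit over 16 libraries. Dotted lines mark a 2-fold change and filled points an adjusted p under 0.05, which *Cdc6* with apoE4 reached at 2.5.

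Of the 5 origin licensing genes, log2 fold changes were positive for 3 in the apoE2 comparison (range −0.43 to 0.65), 2 in the apoE3 comparison (range −0.55 to 0.41) and 3 in the apoE4 comparison (range −0.27 to 2.5). *Cdc6* (ENSMUSG00000017499.15, chr11:98907801-98923940, + strand, mm10) encodes the ATPase that loads the MCM helicase. It was at 0.409, 0.121, 0.279 and 0.471 CPM in control replicates 1 to 4, which rests on 9, 3, 8 and 9 reads. With apoE4 the values were 2.71, 1.14, 1.44 and 1.98 CPM from 40, 40, 26 and 39 reads, so that all 4 apoE4 libraries were above all 4 control libraries. With apoE2 they were 0.493, 0.459, 0.689 and 0.356 CPM and with apoE3 0.381, 0.205, 0.229 and 0.591 CPM, and both groups overlapped the control neurons. The mean rose from 0.320 ± 0.155 CPM to 1.82 ± 0.690 CPM with apoE4 (SD, n = 4), a log2 fold change of 2.5 (SE 0.44, 95% interval 1.55 to 3.44), higher in 4 of 4 pairs, with an edgeR adjusted p of 0.0349. With the replicate block the adjusted p was 9.32e-04, and by DESeq2 it was 5.89e-05. For apoE2 and apoE3 the log2 fold changes were 0.65 (SE 0.45, 95% interval −0.31 to 1.60) and 0.10 (SE 0.47, 95% interval −0.91 to 1.11), with adjusted p of 1.00 and 0.965.

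The size of the *Cdc6* rise was steady and its call without the block was not. Leaving out 1 library at a time gave log2 fold changes of 2.22 to 2.73 and kept the call in 7 of 16 fits. The adjusted p of edgeR was 0.0970, 0.121, 0.157 and 0.0641 without control replicates 1, 2, 3 and 4, 0.0607 without apoE2 replicate 1, 0.0632 without apoE3 replicate 1, and 0.14, 0.0563 and 0.0981 without apoE4 replicates 1, 3 and 4. With the replicate block it was called in 16 of 16 such fits, at log2 fold changes of 2.34 to 2.70 and an adjusted p of at most 0.00766. With the block, 4 of the 9 astrocyte markers and 2 of the 7 tested progenitor markers were also called higher with apoE4, as were 1 of 8 oligodendrocyte lineage, 1 of 8 fibroblast and mural and 1 of 3 endothelial markers and 0 of the neuronal and microglial ones. The astrocyte marker sum of the apoE4 and the control library was 3526 and 2144 CPM in number 1, 1577 and 1418 in number 2, 3625 and 2492 in number 3 and 5404 and 3189 in number 4. Its part in the *Cdc6* value was not tested. *Wipf2*, the neighbour 2760 bases on the side of lower coordinates, is on the same strand and had a log2 fold change of 0.54 (SE 0.18, edgeR adjusted p = 0.792, or 0.0388 with the replicate block). *Rara*, 3877 bases beyond the other end, had 0.19 (SE 0.35, edgeR adjusted p = 1.00).

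*Cdt1*, the other loading factor, was at 4.32, 3.06, 3.94 and 4.82 CPM in the control neurons, 3.52, 2.56, 2.18 and 3.74 CPM with apoE2, 3.28, 1.68, 1.87 and 4.27 CPM with apoE3 and 4.13, 1.88, 3.38 and 4.07 CPM with apoE4. Every treated library lay below the control library of its number, but the groups overlapped. The log2 fold changes were −0.43 (SE 0.33, 95% interval −1.13 to 0.28), −0.55 (SE 0.33, 95% interval −1.26 to 0.16) and −0.27 (SE 0.33, 95% interval −0.97 to 0.44) for apoE2, apoE3 and apoE4, and the edgeR adjusted p with apoE3 was 0.803, or 0.0511 with the replicate block. *Orc1*, with 10.8% of its exonic bases opposite *Gm12743*, and *Orc6*, subunits of the origin recognition complex, had 0.17, −0.12 and 0.52 for apoE2, apoE3 and apoE4 and −0.0046, −0.10 and −0.17 for apoE2, apoE3 and apoE4 on the log2 scale. *Gmnn*, whose product geminin blocks CDT1 after S phase has begun, was at 0.209 to 1.51 CPM over the 16 libraries and had 0.49, 0.41 and 0.51 for apoE2, apoE3 and apoE4.

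In the replicative helicase 9, 8 and 8 of 10 genes had positive values with apoE2, apoE3 and apoE4, within log2 fold changes of −0.54 to 1.11, and 0 of 10 were called with any isoform, with or without the replicate block. *Mcm2*, a core subunit of the helicase, was at 8.23, 5.88, 7.57 and 9.16 CPM in the control neurons, 12.2, 5.50, 7.89 and 10.5 with apoE2, 9.45, 4.88, 6.29 and 10.4 with apoE3 and 9.96, 5.84, 6.31 and 9.82 with apoE4. The groups overlapped almost completely, with log2 fold changes of 0.22 (SE 0.29, 95% interval −0.40 to 0.85), 0.0055 (SE 0.29, 95% interval −0.62 to 0.63) and 0.05 (SE 0.29, 95% interval −0.58 to 0.67) for apoE2, apoE3 and apoE4. *Mcm10*, which helps to activate the helicase, was at 0.591, 0.201, 0.314 and 1.36 CPM in the control neurons, 0.846, 0.459, 0.460 and 0.636 with apoE2, 0.381, 0.533, 0.648 and 1.71 with apoE3 and 0.746, 0.684, 1.38 and 2.44 with apoE4. Its log2 fold change with apoE4, the largest of these genes, was 1.11 (SE 0.61, 95% interval −0.18 to 2.40), higher in 4 of 4 pairs, with an edgeR adjusted p of 1.00. The highest *Mcm10* library of each of the control, apoE3 and apoE4 groups was replicate 4.

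*Cdc45*, the helicase activator, was at 2.09, 1.53, 1.40 and 3.82 CPM in the control neurons, 2.61, 2.10, 2.07 and 3.001 with apoE2, 1.68, 1.19, 1.30 and 1.90 with apoE3 and 1.08, 1.82, 1.72 and 3.77 with apoE4. The 4 apoE3 libraries were all below the 4 apoE2 libraries, and each was below the control library of its number. Against the control neurons its log2 fold changes were 0.15 (SE 0.38, 95% interval −0.66 to 0.96), −0.54 (SE 0.39, 95% interval −1.37 to 0.28) and −0.07 (SE 0.38, 95% interval −0.88 to 0.75) for apoE2, apoE3 and apoE4, and the adjusted p with apoE3 was 0.806. *Gins2*, a subunit of the GINS complex, was at 0.818, 0.684, 1.36 and 1.15 CPM in the control neurons, 1.69, 1.68, 0.919 and 1.68 with apoE2, 1.29, 0.656, 0.952 and 2.30 with apoE3 and 1.42, 1.31, 0.996 and 2.04 with apoE4, with log2 fold changes of 0.57, 0.35 and 0.52 for apoE2, apoE3 and apoE4. It shares 67.3% of its exonic bases with *Gse1* on the opposite strand, and whether the counting used strand is not given in the sources used here, so its reads are uncertain. *Cdc45* has 5.96% of its exonic bases opposite *Ufd1*. *Mcm3* to *Mcm7* and *Gins1* had log2 fold changes of −0.24 to 0.62 over the 3 isoforms, and none was called.

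The polymerase and primase genes had positive values for 2 in the apoE2 comparison (range −0.17 to 0.29), 4 in the apoE3 comparison (range −0.13 to 0.34) and 4 in the apoE4 comparison (range −0.06 to 0.38), of 5 genes each. *Pola1*, the catalytic subunit of the polymerase that starts each strand, was at 10.1, 8.49, 9.04 and 12.8 CPM in the control neurons, 14.1, 10.4, 10.8 and 14.2 with apoE2, 13.3, 9.10, 11.1 and 13.1 with apoE3 and 12.4, 8.61, 9.08 and 22.5 with apoE4. It was higher than the control library in 4 of 4 pairs with each isoform, by log2 fold changes of 0.29 (SE 0.27, 95% interval −0.28 to 0.86), 0.20 (SE 0.27, 95% interval −0.38 to 0.78) and 0.38 (SE 0.27, 95% interval −0.20 to 0.95) for apoE2, apoE3 and apoE4, and its smallest adjusted p was 0.864. The groups overlapped with each isoform. *Pold1*, the catalytic subunit of the lagging strand polymerase, was at 4.32, 2.58, 2.55 and 3.93 CPM in the control neurons, 4.93, 2.06, 3.26 and 3.31 with apoE2, 5.87, 2.71, 2.82 and 5.64 with apoE3 and 4.88, 2.74, 2.44 and 5.19 with apoE4, with log2 fold changes of 0.02, 0.34 and 0.19 for apoE2, apoE3 and apoE4. *Pold3*, a further subunit of that polymerase, *Pole* of the leading strand enzyme and *Prim1* of the primase had values of −0.17 to 0.38.

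The sliding clamp and its loader had the smallest errors of the role groups, with a median standard error of 0.15 on the log2 scale with each isoform, and none of the 5 genes was called. Of these genes, positive values were found for 5 in the apoE2 comparison (range 0.0017 to 0.37), 4 in the apoE3 comparison (range −0.13 to 0.44) and 4 in the apoE4 comparison (range −0.09 to 0.26). *Pcna* was at 16.7, 15.3, 19.0 and 22.1 CPM in the control neurons, 21.1, 18.4, 17.9 and 22.8 with apoE2, 19.96, 17.3, 18.0 and 23.8 with apoE3 and 16.6, 16.7, 18.9 and 21.6 with apoE4. Its log2 fold changes of 0.13 (SE 0.14, 95% interval −0.18 to 0.44), 0.11 (SE 0.15, 95% interval −0.20 to 0.42) and 0.02 (SE 0.14, 95% interval −0.29 to 0.33) for apoE2, apoE3 and apoE4 had intervals well inside a 2-fold change. Reads may be shared with the processed copy *Pcna-ps2*, at 3.12 to 6.41 CPM, which makes the level of *Pcna* uncertain. *Rfc3*, a loader subunit, was at 5.96, 3.30, 4.19 and 6.23 CPM in the control neurons, 9.37, 3.82, 5.09 and 7.20 with apoE2, 9.06, 4.51, 4.65 and 8.60 with apoE3 and 5.76, 4.85, 4.26 and 5.70 with apoE4, higher than the control library in 4 of 4 pairs with apoE2 and apoE3 and 2 of 4 with apoE4, with log2 fold changes of 0.37, 0.44 and 0.06 for apoE2, apoE3 and apoE4 and a smallest adjusted p of 0.806. *Rfc4* was at 2.23, 2.13, 1.85 and 2.83 CPM in the control neurons, 2.75, 2.56, 1.95 and 3.28 with apoE2, 2.51, 2.17, 1.90 and 3.67 with apoE3 and 2.10, 2.39, 2.27 and 4.07 with apoE4, with log2 fold changes of 0.22, 0.18 and 0.26 for apoE2, apoE3 and apoE4. *Rfc2* and *Rfc5* stayed within −0.13 to 0.09. Exonic bases opposite another gene make up 12.7% of *Rfc4* (*Eif4a2*), 15.1% of *Rfc2* (*Lat2*) and 10.7% of *Rfc5* (*Wsb2*), so their counts are uncertain as well.

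The 3 genes that process Okazaki fragments and coat single strands showed no call. *Rpa2*, a subunit of the protein that coats single-stranded DNA, was at 6.96, 8.73, 4.96 and 7.28 CPM in the control neurons, 9.79, 7.22, 6.09 and 9.31 with apoE2, 7.16, 5.49, 5.07 and 7.48 with apoE3 and 7.39, 6.41, 5.31 and 9.46 with apoE4. Its log2 fold changes were 0.21, −0.15 and 0.03 for apoE2, apoE3 and apoE4, and the groups overlapped. *Fen1*, the flap endonuclease, was at 0.500, 0.684, 0.873 and 0.576 CPM in the control neurons, 0.493, 0.535, 0.460 and 0.941 with apoE2, 0.990, 0.615, 0.914 and 0.131 with apoE3 and 0.407, 0.741, 0.387 and 0.865 with apoE4, and 78.8% of its exonic bases lie opposite *Gm10143*, so its reads are uncertain. Its log2 fold changes were −0.10, 0.0089 and −0.12 for apoE2, apoE3 and apoE4, and those of the ligase gene *Lig1* were −0.03, −0.11 and 0.02 for apoE2, apoE3 and apoE4.

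Deoxynucleotide supply held the only gene called with apoE3, and only with the replicate block. *Rrm1*, the large subunit of ribonucleotide reductase, was at 15.8, 11.5, 10.2 and 22.3 CPM in the control neurons, 20.8, 12.5, 13.1 and 19.2 with apoE2, 22.5, 14.1, 12.04 and 29.3 with apoE3 and 18.7, 12.5, 12.5 and 26.6 with apoE4. The apoE3 library was higher than the control library in 4 of 4 pairs, yet the groups overlapped, since replicates 1 and 4 were high in every group. The log2 fold change with apoE3 was 0.38 (SE 0.34, 95% interval −0.34 to 1.10) with an edgeR adjusted p of 0.812, and with the replicate block it was 0.36 (SE 0.11, edgeR adjusted p = 0.0493). That call lay at the threshold, and it was kept in 3 of the 16 blocked fits that left out 1 library, where the log2 fold change was 0.30 to 0.43 and the adjusted p reached 0.184. With apoE3 and the block, 8 of 9 astrocyte, 4 of 7 progenitor, 3 of 8 oligodendrocyte lineage, 2 of 8 fibroblast and mural, 1 of 3 endothelial and 0 of 8 microglial markers tested were called higher, and of 10 neuronal markers 1 was called higher and 2 lower. Their part in the *Rrm1* value was not tested.

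*Rrm2*, the small subunit that cycles with S phase, was at 3.18, 2.05, 2.09 and 4.45 CPM in the control neurons, 4.09, 2.75, 3.14 and 4.50 with apoE2, 4.88, 1.84, 3.09 and 9.58 with apoE3 and 3.59, 2.00, 3.04 and 8.50 with apoE4. Replicate 4 held the highest value of every group and reached 9.58 and 8.50 CPM with apoE3 and apoE4. The log2 fold changes were 0.30 (SE 0.50, 95% interval −0.77 to 1.37), 0.71 (SE 0.50, 95% interval −0.36 to 1.79) and 0.54 (SE 0.50, 95% interval −0.53 to 1.61) for apoE2, apoE3 and apoE4, with a smallest adjusted p of 0.806. *Tyms*, which encodes thymidylate synthase, was at 2.86, 2.54, 1.75 and 3.14 CPM in the control neurons, 3.38, 1.68, 1.15 and 3.28 with apoE2, 3.20, 3.20, 1.87 and 2.82 with apoE3 and 2.91, 1.65, 2.44 and 4.17 with apoE4, with log2 fold changes of −0.12, 0.11 and 0.12 for apoE2, apoE3 and apoE4.

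Among the 7 genes of fork protection and repair, *Brip1* met this 2-fold criterion with apoE4 and was not called at an adjusted p. It encodes a helicase that acts with BRCA1 and was at 0.500, 0.282, 0.489 and 0.262 CPM in the control neurons, 1.13, 0.306, 0.536 and 0.534 with apoE2, 0.381, 0.205, 0.724 and 1.05 with apoE3 and 1.15, 0.656, 0.332 and 2.04 with apoE4. The apoE4 group overlapped the control neurons, and 3 of 4 apoE4 libraries were higher in their pair. The log2 fold change with apoE4 was 1.42 (SE 0.59, 95% interval 0.16 to 2.67) with an unadjusted p of 0.0296 and an edgeR adjusted p of 1.00, and it fell to 0.85 without apoE4 replicate 4. The criterion was also missed without control replicate 2 (log2 fold change 1.29) and without apoE4 replicate 1 (1.37). *Clspn*, the adaptor of the replication checkpoint, was at 0.727, 0.604, 0.873 and 1.31 CPM in the control neurons, 1.27, 1.41, 1.57 and 0.890 with apoE2, 1.52, 0.574, 1.10 and 2.36 with apoE3 and 1.08, 0.713, 0.830 and 1.68 with apoE4, with log2 fold changes of 0.55 (SE 0.41, 95% interval −0.32 to 1.42), 0.65 (SE 0.41, 95% interval −0.23 to 1.53) and 0.29 (SE 0.41, 95% interval −0.59 to 1.17) for apoE2, apoE3 and apoE4. Its adjusted p was 0.806 with apoE3. *Tipin*, *Ung*, *Exo1*, *Blm* and *Usp1* had log2 fold changes of −0.35 to 0.49 and were not called.

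*Chaf1b*, a subunit of the factor that places histones on new DNA, was at 0.500, 0.282, 0.628 and 0.943 CPM in the control neurons, 0.775, 0.573, 0.651 and 0.534 with apoE2, 0.838, 0.451, 0.267 and 1.57 with apoE3 and 1.15, 0.485, 0.498 and 1.17 with apoE4, and its log2 fold changes were 0.10, 0.38 and 0.48 for apoE2, apoE3 and apoE4. *Slbp*, which binds the stem-loop of histone mRNA, stayed within −0.07 and −0.0021. The cyclin E genes were not called with any isoform. *Ccne1* was at 8.96, 9.98, 9.28 and 9.22 CPM in the control neurons, 8.81, 12.6, 8.35 and 11.3 with apoE2, 11.4, 11.6, 8.72 and 8.99 with apoE3 and 9.15, 10.5, 7.92 and 6.87 with apoE4, and its log2 fold changes were 0.14 (SE 0.17, 95% interval −0.23 to 0.50), 0.12 (SE 0.17, 95% interval −0.25 to 0.49) and −0.12 (SE 0.17, 95% interval −0.49 to 0.24) for apoE2, apoE3 and apoE4. *Ccne2* was at 3.91, 5.43, 5.31 and 4.08 CPM in the control neurons, 4.30, 5.24, 5.94 and 4.17 with apoE2, 3.73, 7.01, 4.42 and 2.69 with apoE3 and 4.74, 4.67, 4.04 and 6.21 with apoE4, with 0.07, −0.06 and 0.07 for apoE2, apoE3 and apoE4. For *Ccne1* the intervals reached at most 0.50, and for *Ccne2* 0.63, so a 2-fold rise of either gene lay outside them. *Ccne2* has 17.4% of its exonic bases opposite *Ints8*.

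**Figure D2:**
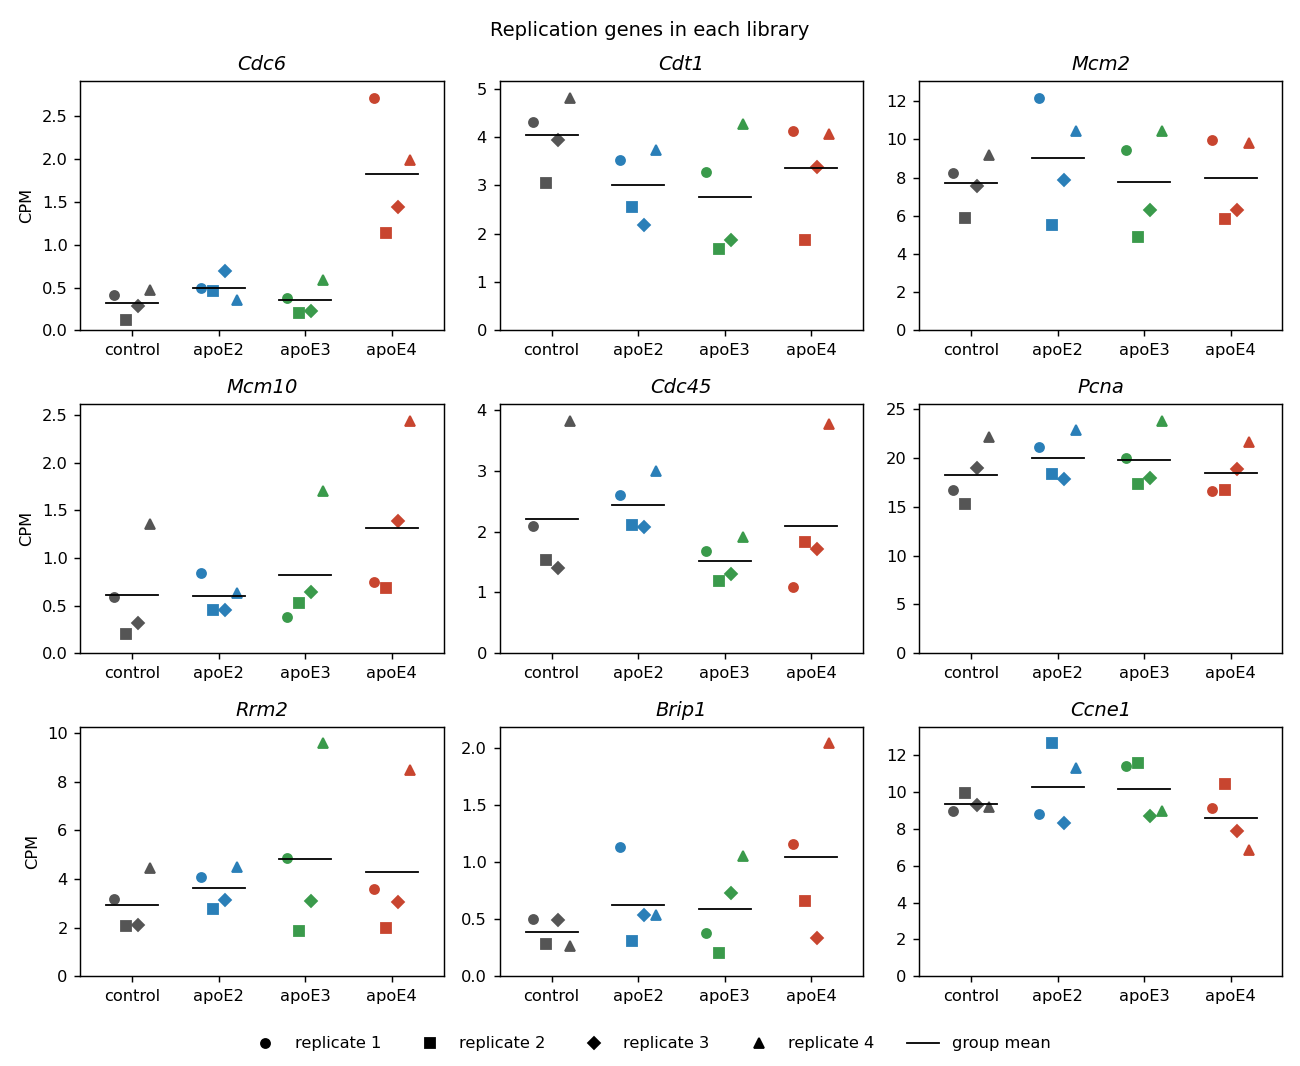
CPM (y axis, linear from 0) of 9 replication genes in the 16 libraries by group (x axis), with a symbol for each replicate number and a line at the group mean. *Cdc6* is 1.14 to 2.71 CPM with apoE4 and 0.121 to 0.689 CPM elsewhere, while in the other genes the apoE4 and control groups overlap and replicate 4 is often highest.

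Between isoforms *Cdc6* was again the gene that stood apart. Without the block 0 of the 42 genes were called between apoE4 and apoE3 (0.147% of all genes), 0 between apoE4 and apoE2 (0.252%) and 0 between apoE3 and apoE2 (0%). An unadjusted p under 0.05 was reached by 1, 1 and 0, against 4.7%, 5.34% and 2.28% of all genes. DESeq2 called 1, 1 and 0, each time *Cdc6*, against 0.405%, 0.957% and 0.0529% of all genes. With the replicate block edgeR called 1, 1 and 0, again *Cdc6*, against 1.76%, 4.44% and 1.31%. The groups did not overlap in 1, 1 and 1 of the 42 genes, where 2.45%, 3.4% and 1.66% of all genes did not.

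All 4 apoE4 libraries held more *Cdc6* than all 8 libraries of the apoE2 and apoE3 groups. The log2 fold change of apoE4 against apoE3 was 2.40 (SE 0.45, 95% interval 1.44 to 3.35), with an edgeR adjusted p of 0.0546, or 0.00329 with the replicate block. Without control replicate 2 and without apoE4 replicate 2 the unblocked adjusted p was 0.0413 and 0.0425. Against apoE2 the log2 fold change was 1.85 (SE 0.43, 95% interval 0.94 to 2.76), with an edgeR adjusted p of 0.116, or 0.00648 with the replicate block. Between apoE3 and apoE2 *Cdc6* differed by −0.54 (SE 0.46, 95% interval −1.52 to 0.43). The gene whose groups did not overlap there was *Cdc45*, lower with apoE3 in 4 of 4 pairs, with a log2 fold change of −0.70 (SE 0.39, 95% interval −1.52 to 0.13) and an edgeR adjusted p of 1.00, or 0.188 with the replicate block. The medians of the 42 genes were 0.06, 0.02 and −0.04 on the log2 scale, against −0.02, 0.01 and 0.02 over all genes.

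The larger differences in replication genes were those between replicate numbers. The 42 genes summed to 281 to 332 CPM in the 4 libraries of number 1, 248 to 257 in number 2, 246 to 264 in number 3 and 347 to 380.3 in number 4. By group the same sums were 249 to 347 CPM in the control neurons, 257 to 349 with apoE2, 246 to 374 with apoE3 and 249 to 380 with apoE4, which overlap almost completely. Number 4 held more than every other library whatever medium it received, and number 1 held more than numbers 2 and 3. A median of 61.5% of a gene's variance in log2 CPM lay between numbers and 10.6% between groups, where the medians over all 17038 genes were 56.1% and 14.4%. More variance lay between numbers than between groups in 40 of the 42 genes, as it did in 13970 of all 17038. The exceptions were *Cdc6*, with 79.7% between groups and 10.3% between numbers, and *Gins1*, with 16.7% and 16.4%.

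Number 4 had the highest mean in 33 of the 42 genes, and the ratio of the mean of number 4 to that of number 2 had a median of 1.70. The widest ratios were those of *Mcm3* (4.07), *Mcm10* (3.27) and *Rrm2* (3.13). The helicase genes summed to 79.5 to 97.2 CPM in number 4 and 38.0 to 44.7 CPM in number 2, and the deoxynucleotide genes to 27.0 to 41.7 and 16.1 to 19.1 CPM. The cyclin E genes did not follow this order, at 11.7 to 15.5 CPM in number 4 and 15.1 to 18.6 CPM in number 2. Ratios below 1 were found for 6 genes, *Ccne2* (0.767), *Rfc5* (0.807), *Ccne1* (0.816), *Orc1* (0.885), *Blm* (0.945) and *Fen1* (0.976). They are a mixed group of a cyclin pair, a loader subunit, an origin protein, a repair helicase and a nuclease.

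Markers of other cells also differed between the numbers, not all in the order of the replication genes. Neuronal markers summed to 4737 to 5459 CPM in number 1, 6951 to 7396 in number 2, 7133 to 7920.3 in number 3 and 3419 to 5122 in number 4, so they were lower in the numbers that held more of the replication genes. Fibroblast and mural markers were at 135 to 239, 20.9 to 24.1, 22.7 to 44.7 and 193 to 536 CPM in numbers 1 to 4, and were higher in each library of numbers 1 and 4 than in any of numbers 2 and 3. Oligodendrocyte lineage markers were likewise higher in every library of numbers 1 and 4, at 426 to 846, 107 to 139, 183 to 258 and 333 to 788 CPM. Astrocyte markers were at 2144 to 4441, 1316 to 1707, 2492 to 3625 and 3016 to 6631 CPM and progenitor markers at 711 to 2279, 201 to 348, 537 to 968 and 1335 to 3698 CPM. Microglial markers were scarce, at 13.6 to 18.2, 13.7 to 17.9, 6.98 to 9.47 and 24.7 to 44.4 CPM, and *Tmem119* was at 0 in at least 1 library. Endothelial markers summed to at most 9.21 CPM, with *Cldn5* and *Cdh5* at 0 in at least 1 library. The part of these cells in the levels of the replication genes was not tested.

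**Figure D3:**
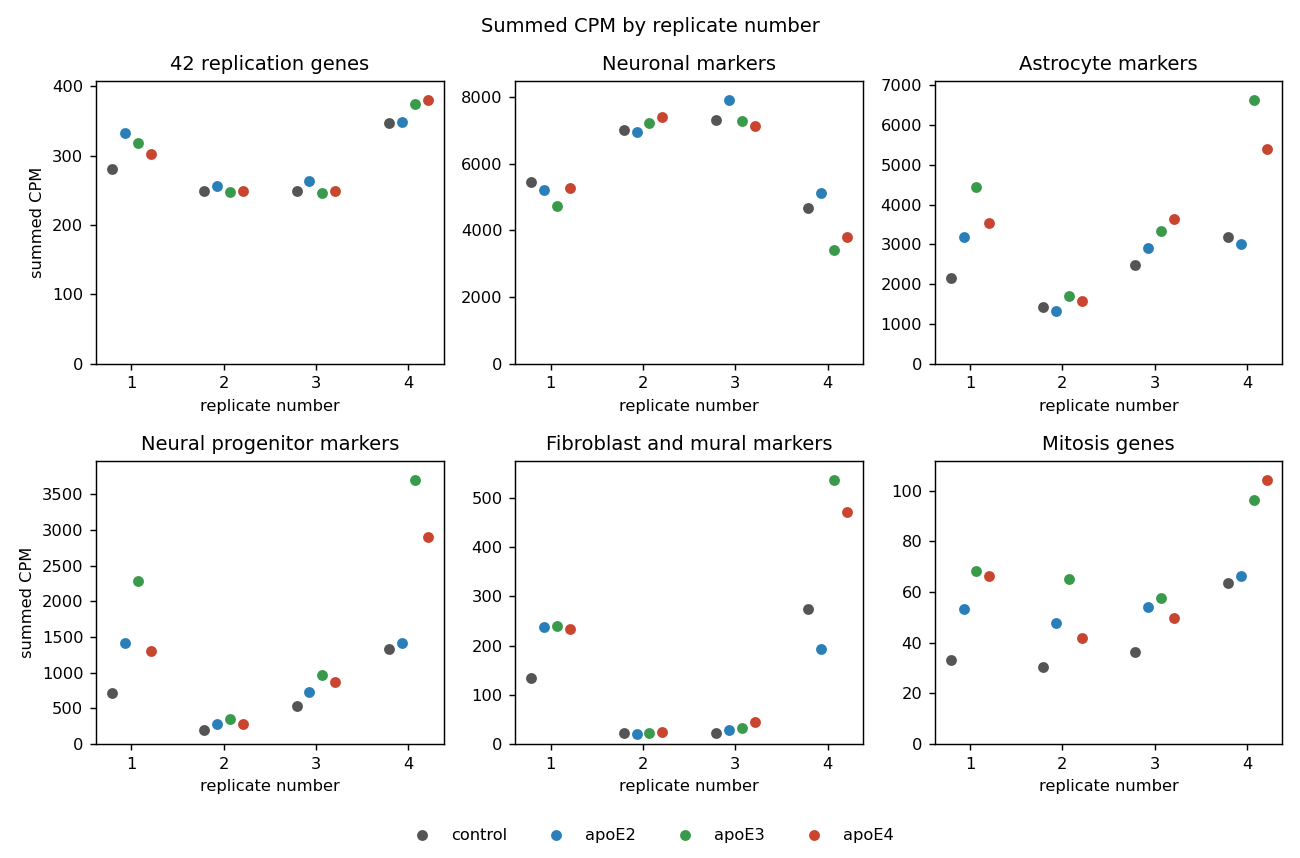
Summed CPM (y axis, linear from 0) of the 42 replication genes, of 4 marker lists and of 22 mitosis genes in the 16 libraries, by replicate number (x axis) and coloured by group. The replication genes are highest in number 4 (347 to 380 CPM) and then number 1, where neuronal markers are lower and fibroblast and mural markers higher than in numbers 2 and 3.

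The other genes of the pathway were read from lists chosen with earlier results known. Of 50 further replication genes 49 were tested, and 0 were called with apoE2, apoE3 or apoE4 without the block. Unadjusted p under 0.05 was reached by 1, 1 and 2 higher and by 1, 1 and 0 lower genes for apoE2, apoE3 and apoE4, where 2.79%, 6.43% and 3.3% of all genes passed. With the block the calls were 0 for apoE2, 2 for apoE3, 1 in each direction, and 1 for apoE4, which was higher, where 1.73%, 11.7% and 3.3% of all genes were called. *Pold4*, the smallest subunit of the lagging strand polymerase, was at 6.86, 5.72, 7.36 and 7.65 CPM in the control neurons, 11.6, 11.2, 9.42 and 8.93 with apoE2, 12.3, 7.50, 10.9 and 10.3 with apoE3 and 8.47, 9.35, 6.70 and 6.87 with apoE4. Its log2 fold change was 0.57 (SE 0.18, 95% interval 0.19 to 0.95) with apoE3, with an edgeR adjusted p of 0.593, or 0.0374 with the replicate block. With apoE2 it was 0.57 (SE 0.18, 95% interval 0.20 to 0.95), with all 4 libraries above the control neurons, and was called neither without nor with the block (edgeR adjusted p = 1.00 and 0.0952). *Cdc7*, the kinase that fires origins, was lower than the control library in 4 of 4 pairs with apoE3, at 5.64, 9.43, 6.06 and 6.50 CPM against 12.4, 9.46, 7.78 and 10.9 CPM, a log2 fold change of −0.55 (SE 0.21) with an edgeR adjusted p of 0.757, or 0.0499 with the block. *Uhrf1*, which recruits the maintenance DNA methyltransferase to new DNA, was at 5.90, 1.28, 4.15 and 10.9 CPM with apoE4 against 2.64, 0.805, 1.85 and 7.86 CPM, higher in 4 of 4 pairs. Its log2 fold change was 0.76 (SE 0.81, 95% interval −0.96 to 2.49), with an edgeR adjusted p of 1.00, or 0.0126 with the block. These calls were made with the block, where 8 of 9 astrocyte and 4 of 7 progenitor markers were called higher with apoE3 and 4 of 9 and 2 of 7 with apoE4, and the part of those cells in the *Pold4*, *Cdc7* and *Uhrf1* values was not tested. The medians of the 49 genes were 0.03, 0.0083 and −0.01.

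Among the E2F genes 1 was called with apoE4. Of 13 E2F and pocket protein genes 12 were tested, and 0, 0 and 1 were called with apoE2, apoE3 and apoE4, while 0, 1 and 4 had an unadjusted p under 0.05, all of them higher, with the same shares over all genes as above. The called gene was *E2f2*, an activating E2F factor, at 0.273, 0.241, 0.628 and 0.367 CPM in the control neurons and 7.59, 2.51, 3.10 and 5.85 CPM with apoE4. The groups did not overlap, and the values were 0.493, 0.382, 0.0766 and 0.331 CPM with apoE2 and 0.990, 0.287, 0.495 and 1.90 CPM with apoE3. The log2 fold change of apoE4 was 3.62 (SE 0.63, 95% interval 2.28 to 4.96) against the control neurons, with an edgeR adjusted p of 0.0283, and 3.90 (SE 0.64, 95% interval 2.54 to 5.27) against apoE2, with 0.0154. Against apoE3 it was 2.40 (SE 0.59, 95% interval 1.14 to 3.66), with an edgeR adjusted p of 0.306, or 0.00532 with the block. *E2f7*, which encodes a repressor of the family, was at 0.182, 0.0805, 0.105 and 0.209 CPM in the control neurons and 1.76, 0.599, 0.720 and 1.58 CPM with apoE4, a log2 fold change of 2.98 (SE 0.62, 95% interval 1.67 to 4.30) with an edgeR adjusted p of 0.0900, or 0.00171 with the block. The control values of *E2f7* rest on 13 reads in all. It passed the low-count filter through its apoE4 libraries. Outside that group its highest values were 0.762 CPM in apoE3 replicate 1 and 0.305 CPM in apoE3 replicate 3. Its level with apoE4 thus decided that *E2f7* was tested, and its p values are not independent of that. *E2f1*, the founding activator, had 0.55 (SE 0.26, 95% interval 0.006 to 1.10) with apoE4 and an adjusted p of 1.00. *Rb1*, the gene of the pocket protein that holds E2F factors back, was higher with apoE3 in 4 of 4 pairs by 0.53 (SE 0.19, 95% interval 0.12 to 0.94), with an edgeR adjusted p of 0.745, or 0.0174 with the block. In the blocked fit 8 of 9 astrocyte and 4 of 7 progenitor markers were also called higher with apoE3. With apoE4 these were 4 of 9 and 2 of 7, and their part in the *Rb1*, *E2f2* and *E2f7* values was not tested. With the block the list held 0, 1 and 2 calls among 12 genes, against 1.73%, 11.7% and 3.3% of all genes. The calls with apoE4 include *E2f7*, which was tested only because of its apoE4 values.

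In the 22 mitosis genes the medians were larger than in the replication genes, at 0.34, 0.49 and 0.68 for apoE2, apoE3 and apoE4, and 18, 20 and 20 of 22 had positive values. Without the block edgeR called 0 genes of this list, 1, 2 and 4 had an unadjusted p under 0.05 (2.79%, 6.43% and 3.3% of all genes), and 1, 1 and 3 were called with the block (1.73%, 11.7% and 3.3% of all genes), all higher. *Top2a*, the topoisomerase of dividing cells, was at 2.18, 2.46, 4.57 and 7.44 CPM in the control neurons, 8.88, 15.3, 13.1 and 21.4 CPM with apoE2, 26.5, 35.0, 15.8 and 16.5 CPM with apoE3 and 6.24, 5.79, 4.15 and 10.4 CPM with apoE4. The apoE2 and apoE3 libraries were all above the control libraries, and the apoE4 libraries overlapped them. Its log2 fold changes were 1.83 (SE 0.42, 95% interval 0.92 to 2.73) and 2.5 (SE 0.43, 95% interval 1.58 to 3.42) with apoE2 and apoE3, with edgeR adjusted p of 0.651 and 0.202, or 0.0140 and 5.59e-04 with the block. *Cenpf*, a kinetochore gene, was at 3.23, 2.495, 5.97 and 5.50 CPM in the control neurons and 13.1, 7.21, 8.75 and 16.9 CPM with apoE4, a log2 fold change of 1.42 (SE 0.31, 95% interval 0.75 to 2.08) with an edgeR adjusted p of 0.118, or 0.00353 with the block. *Foxm1*, the transcription factor of mitotic genes, and *Bub1b*, of the spindle checkpoint, had 1.38 and 2.02 with apoE4, called with the block at 0.00886 and 0.0150. With the block 0, 8 and 4 of the 9 astrocyte markers were called higher for apoE2, apoE3 and apoE4, and their part in these values was not tested.

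Of 7 cell cycle inhibitor genes 6 were tested, and 0 were called or had an unadjusted p under 0.05 with any isoform. With the block *Cdkn1a* and *Cdkn2b*, which encode inhibitors of cyclin-dependent kinases, were called with apoE3, where 11.7% of all genes were. Their log2 fold changes were 0.86 (SE 0.56, 95% interval −0.35 to 2.06) and 1.31 (SE 0.65, 95% interval −0.07 to 2.69), and the edgeR adjusted p with the block was 0.0482 and 0.0108. *Cdkn1a* was at 29.8, 13.1, 21.7 and 34.5 CPM in the control neurons and 68.5, 12.9, 23.8 and 74.8 CPM with apoE3, so that replicate 2 was low and alike in both groups. In the same blocked comparison 8 of 9 astrocyte, 4 of 7 progenitor and 3 of 8 oligodendrocyte lineage markers were called higher, and their part in the *Cdkn1a* and *Cdkn2b* values was not tested. The medians of the list were 0.22, 0.78 and 0.50.

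**Figure D4:**
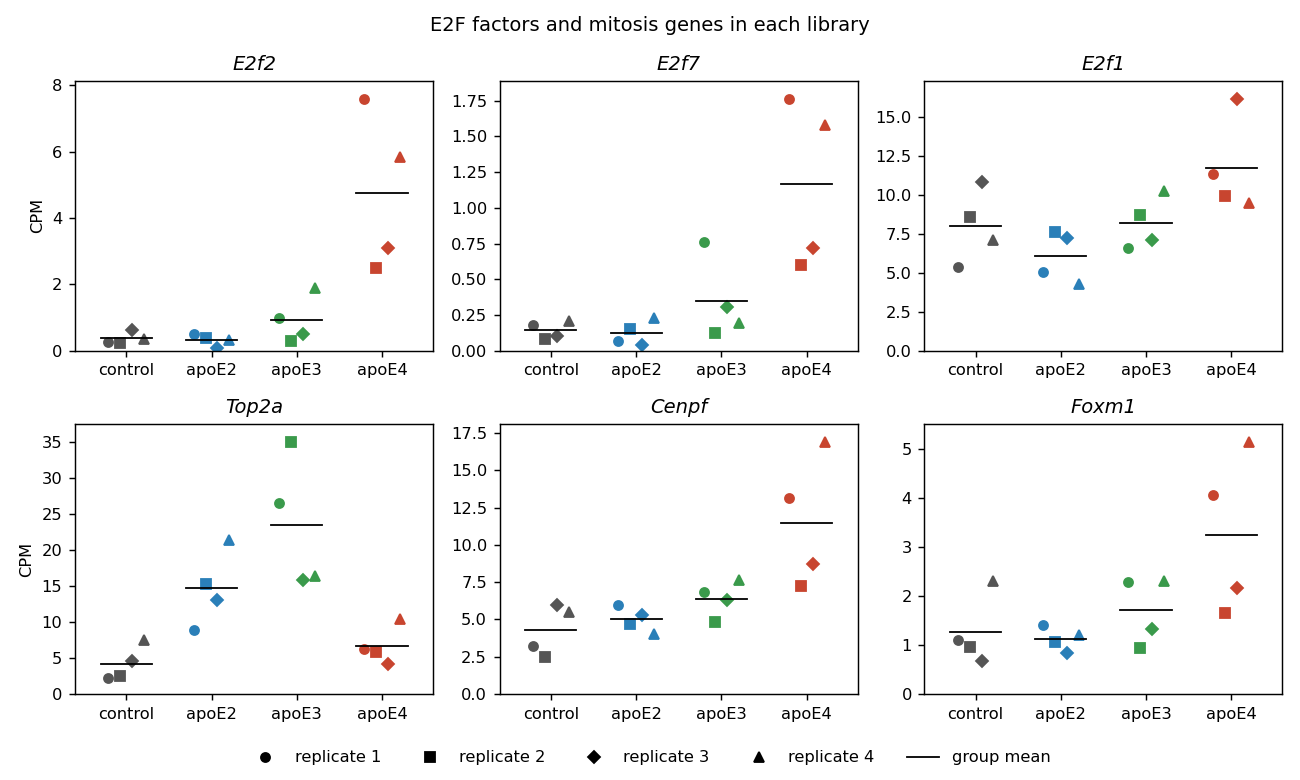
CPM (y axis, linear from 0) of 3 E2F genes and 3 mitosis genes in the 16 libraries by group (x axis), with a symbol for each replicate number and a line at the group mean. *E2f2* is 2.51 to 7.59 CPM with apoE4 and at most 1.90 CPM elsewhere, whereas *Top2a* is 15.8 to 35.0 CPM with apoE3 and 4.15 to 10.4 CPM with apoE4.

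Levels in the control neurons were low for most of the family. Per kilobase of exon the median was 1.09 CPM over the 42 genes and 3.38 CPM over the 16463 tested genes with a length, and 35 of the 42 genes were below the latter. The highest levels on this scale were those of *Orc6* at 8.32, *Pcna* at 7.61 and *Tipin* at 6.20 CPM per kilobase. The lowest were those of *Brip1* at 0.0514, *Cdc6* at 0.0612 and *Exo1* at 0.0742 CPM per kilobase. *Cdc6* was at percentile 1.01 of the tested genes on this scale, so its control values rest on few reads. The median standard error of a log2 fold change against the control neurons was 0.34 in the family for each isoform and 0.26 over all genes without the block, and with the block it was 0.19 in the family for each isoform and 0.14 over all genes.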

How the data were processed

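RNA was extracted from 16 cultures of primary hippocampal neurons, 4 per group. The authors depleted ribosomal RNA, sequenced TruSeq libraries, aligned the reads to mm10 with STAR and counted them per gene with HTSeq. The deposited values are these raw counts per gene, with 1 file per library, and rows for reads assigned to no gene (38.4 to 73.7% of a library) were left out. The annotation and the strand setting of the counting are not given in the sources used here.

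From the counts, edgeR 4.0.16 in R 4.3.3 was run with TMM scaling and its filterByExpr step (minimum count 10, minimum total 15, proportion 0.7), which left 17038 genes. One quasi-likelihood fit over all 16 libraries gave 6 comparisons, with Benjamini-Hochberg adjustment over all genes. CPM use the TMM-scaled library size. Intervals are 95% intervals of the fit. The alternatives were DESeq2 1.42.0, its size factors within edgeR, no low-count filter, a filter of 1 CPM in 8 libraries, only the 2 groups compared, each library left out, and the replicate number as a block. The method was tested on simulated data, drawn at the common dispersion of the blocked fit. Only genes above 1 CPM in the control neurons were changed there. The simulation therefore says nothing on the recovery of *Cdc6*, *Brip1*, *E2f2* or *E2f7*, which lie below that level.

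The labels number the libraries of each group 1 to 4. Deviations from the group means correlated within every number (r of 0.362 to 0.552 in number 1, 0.766 to 0.831 in number 2, 0.620 to 0.671 in number 3 and 0.681 to 0.790 in number 4), against −0.736 to 0.569 between numbers. In numbers 2, 3 and 4 all values lay above those between numbers, and in number 1 they did not. The numbers were used as pairs on this basis, which is less clear for number 1, and the labels give only the numbers. The common dispersion was 0.132 without the block and 0.0178 with it.

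The 42 genes and the other lists were chosen with earlier results of these data known. Values in every library are given for the genes called, for the gene with the smallest p in each role group and comparison, and for *Pcna*, *Mcm2*, *Rrm2*, *Tyms* and the cyclin E genes. *Rrm1* was added after its values had been seen, since it was called with the block. Gene positions are those of GENCODE M21, which matched 46361 of 48397 symbols.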

Additional observations from a re-analysis of the deposited data

Results flagged for a closer look

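Dixon's test was run on 84 sets of 4 libraries, from the named genes and the sum of the 42 genes in each group. In 3 sets 1 library lay far from the other libraries, which is no more than the 1 in 20 that chance alone gives. *Gins2* was at 0.919 CPM in apoE2 replicate 3 and at 1.68 to 1.69 CPM in the other apoE2 libraries. *Rfc4* was at 4.07 CPM in apoE4 replicate 4 and at 2.10 to 2.39 CPM in the others. *Fen1* was at 0.941 CPM in apoE2 replicate 4 and at 0.460 to 0.535 CPM in the others.

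The effect of apoE4 on *Cdc6* differed from those of the other isoforms in the test of the difference itself. With the replicate block it exceeded that of apoE3 by 2.38 on the log2 scale (edgeR adjusted p = 0.00329) and that of apoE2 by 1.78 (edgeR adjusted p = 0.00648), higher in 4 of 4 pairs each time. Without the block the adjusted p of edgeR was 0.0546 and 0.116.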

How the results depend on the processing

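With apoE4 against control, 0 of the 42 genes were called without a low-count filter, with a filter of 1 CPM in 8 libraries, which left 34 of them and removed *Cdc6*, and with only the 2 groups compared, against 1 in the report, and leaving out a library gave 0 to 1. Genes at the 2-fold criterion with apoE4 were 0 under the 1 CPM filter and 1 to 2 with a library left out. The replicate block gave 1 call each for apoE3 against control, apoE4 against apoE3 and apoE4 against apoE2, and it changed no other call of the 42 genes. DESeq2 gave 1 call each for apoE4 against apoE3 and against apoE2, and leaving out a library gave 0 to 1 for apoE4 against apoE3.

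With a library left out, the median log2 fold change of the family was 0.052 to 0.29 with apoE2, −0.079 to 0.22 with apoE3, −0.033 to 0.34 with apoE4, −0.13 to 0.22 for apoE4 against apoE3, −0.19 to 0.15 for apoE4 against apoE2 and −0.17 to 0.043 for apoE3 against apoE2. In the blocked fit the calls were then 0 to 1 with apoE2, 0 to 2 with apoE3 and 1 to 2 with apoE4. Besides *Cdc6* and *Rrm1* these were *Mcm6* with apoE2 (log2 fold change 0.68 without control replicate 4 and 0.63 without apoE2 replicate 4), *Mcm7* with apoE4 (0.38 without apoE2 replicate 4), and with apoE3 *Rrm2* (0.74 without apoE3 replicate 2) and *Cdt1* (−0.77 to −0.62 without apoE2 replicate 2 or 4, apoE3 replicate 4 or apoE4 replicate 2). Of the values of single genes against the control neurons, 126 in most settings, 102 under the 1 CPM filter and 125 with only the 2 groups compared, 2 to 4 changed sign under a single setting and 0 to 23 with a library left out. The cause was not tested. Low counts limit *Cdc6*, *Brip1* and *E2f7*, and 4 libraries a group limit small shifts.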
